A study of Mus musculus with 22 samples.

Results

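Broad promoter H3K27ac domains are long stretches of chromatin around protein-coding transcription start sites (TSSs) that carry acetylation of histone H3 at lysine 27 (H3K27ac). Their members were chosen by measured values, namely the positions and widths of H3K27ac peaks in 3 libraries. Overlapping peaks on chromosomes 1 to 19 were united, and a united region was kept if it held a peak in all 3 libraries, was at least 2000 bp long, lay within 2.5 kb of a protein-coding TSS and did not contain the TSSs of 2 oppositely transcribed genes within 1 kb of each other. Of 34063 united regions, 13977 had a peak in every library and 10664 of these lay near a protein-coding TSS. At least 2000 bp were reached by 466, of which 70 were left out for an opposite pair, so 396 broad domains remained. The 9825 regions that met the same conditions but were shorter than 2000 bp served as the comparison and are called shorter regions.

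The libraries came from KL cells, the lineage-negative, cKit-positive and Sca-1-negative myeloid progenitors of the bone marrow, sorted from male C57BL/6 mice of genotype scl-Cre-ERT +; Bcorfl/y. Mice aged 3 to 6 months had received 1 mg tamoxifen by intraperitoneal injection on each of 5 days, and cells were collected 20 weeks later. Tamoxifen activates a Cre recombinase that is driven in haematopoietic stem cells by regulatory sequence of Tal1 (Scl), and excision of exons 9 and 10 then truncates Bcor (BcorΔE9-10), an X-linked gene that encodes a subunit of a variant Polycomb repressive complex. All 3 libraries share this genotype and treatment. BcorWT cells have no H3K27ac library in the data used here, so regions are compared within the same cells and the effect of the deletion was not examined. The 3 libraries, from 3 mice per the study's methods, are called replicates 1, 2 and 3.

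H3K27ac is placed by the acetyltransferases CBP and p300 on nucleosomes beside active promoters and enhancers. At most active promoters the mark occupies the first nucleosomes on either side of a nucleosome-depleted TSS. At some promoters, often those of genes that regulate cell identity, it spreads further into the gene and upstream of it.

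Depth recovered from the peak lists was 18.04, 18.92 and 19.26 M reads in replicates 1, 2 and 3, and the numbers of autosomal peaks were 22998, 25516 and 23310. The weakest summits called rested on 8, 8 and 9 fragments, so weaker acetylation between peaks was not detectable at this depth. Intervals given below cover counting error only.

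To show what DNA underlies these domains, the promoter sequences of the 3 longest domains with 1 protein-coding gene and an entry in the RefSeq promoter table (GRCm38.p6) are given 5′ to 3′ on the gene's strand, each running from 250 bases before to 50 after the RefSeq start site. Arid2, which has the longest domain, is named only. The fourth sequence is that of Ccdc34, whose shorter region has the median length of its class. Capitals mark CpG dinucleotides, the target of DNA methylation and the hallmark of CpG island promoters.
Cdk6, chr5:3343643-3343942, plus strand: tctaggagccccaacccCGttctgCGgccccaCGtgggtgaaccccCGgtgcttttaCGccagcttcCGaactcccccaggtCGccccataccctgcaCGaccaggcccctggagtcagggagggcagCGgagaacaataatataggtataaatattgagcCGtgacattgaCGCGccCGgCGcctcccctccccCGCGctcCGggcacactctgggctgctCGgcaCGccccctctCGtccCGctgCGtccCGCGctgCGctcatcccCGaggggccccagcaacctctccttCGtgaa
B3gnt2, chr11:22859686-22859985, minus strand: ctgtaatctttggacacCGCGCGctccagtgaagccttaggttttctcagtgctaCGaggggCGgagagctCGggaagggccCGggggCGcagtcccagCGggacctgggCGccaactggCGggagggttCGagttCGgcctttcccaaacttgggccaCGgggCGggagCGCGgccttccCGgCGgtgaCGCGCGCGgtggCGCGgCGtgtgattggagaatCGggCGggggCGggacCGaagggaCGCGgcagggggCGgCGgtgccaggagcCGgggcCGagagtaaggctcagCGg
Hivep2, chr10:13966129-13966428, plus strand: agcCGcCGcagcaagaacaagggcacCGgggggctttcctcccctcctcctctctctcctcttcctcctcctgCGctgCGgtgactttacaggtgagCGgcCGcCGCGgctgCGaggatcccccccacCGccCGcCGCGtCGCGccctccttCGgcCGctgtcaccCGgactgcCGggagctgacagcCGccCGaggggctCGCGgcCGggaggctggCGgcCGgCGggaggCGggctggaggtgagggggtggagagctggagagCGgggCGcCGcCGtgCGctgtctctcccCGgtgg
Ccdc34, chr2:110017567-110017866, plus strand: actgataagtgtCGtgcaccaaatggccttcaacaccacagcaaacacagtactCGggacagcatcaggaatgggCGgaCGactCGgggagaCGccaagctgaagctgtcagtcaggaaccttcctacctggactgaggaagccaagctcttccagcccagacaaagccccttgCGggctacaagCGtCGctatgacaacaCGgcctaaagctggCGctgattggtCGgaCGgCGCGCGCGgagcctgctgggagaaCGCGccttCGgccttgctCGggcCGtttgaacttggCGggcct

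The Cdk6, B3gnt2 and Hivep2 windows of 300 bases held 27, 37 and 35 CpGs, and the Ccdc34 window held 23. For Cdk6 and B3gnt2 the RefSeq start sites (3343893 and 22859735) differ from the GENCODE principal TSSs (3344312 and 22860488). Reach into and upstream of genes is measured below from the principal TSS. All 300 bases of the Cdk6, B3gnt2 and Hivep2 windows lay under peaks in each library. At Ccdc34, 22, 49 and 20 bases of the window lay under a peak in replicates 1, 2 and 3, since its acetylated region began at the start site and ran into the gene. The GC box GGGCGG, on either strand, occurred 0 times at Cdk6, 5 times at B3gnt2, 2 times at Hivep2 and 1 time at Ccdc34.

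Length varied continuously across promoters, and the broad domains were the long end of 1 distribution. Their median united length was 2286.5 bp (quartiles 2132.5 and 2601.5, range 2003 to 4585), and that of the shorter regions was 768 bp. The threshold and the number of libraries set how many there were, with 245 domains when replicate 3 was left out. Of the 396, 125 (31.6%) reached 2500 bp, 51 (12.9%) reached 3000 bp and 7 (1.77%) reached 4000 bp. Just inside the threshold were the domains of Gsr (2006 bp), which encodes glutathione reductase, BC005537 (2004 bp) and Gab2 (2003 bp), an adaptor of receptor signalling. Just outside were the regions of Galnt1 (1999 bp), Uhrf2 (1998 bp) and Nr3c1 (1998 bp), the glucocorticoid receptor. Broad domains made up 3.87% of the 10221 shared promoter regions, and held 10.8%, 10.7% and 11.05% of the promoter bases under peaks in replicates 1, 2 and 3.

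**Figure D1:**
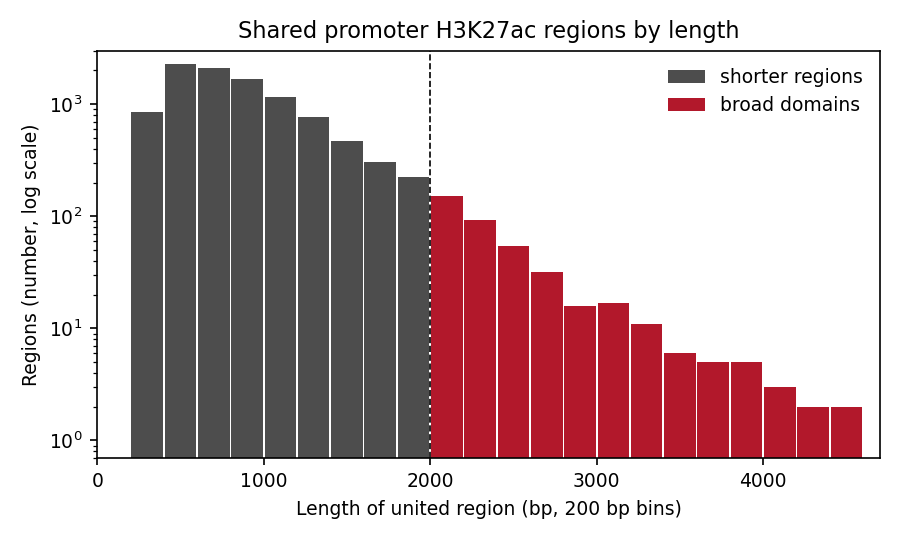
Number of shared promoter H3K27ac regions (vertical axis, log scale) by united length in bp (horizontal axis, 200 bp bins), with a dashed line at 2000 bp. Counts fall steadily through the line from the shorter regions (grey) to the 396 broad domains (red), with no gap at the threshold.

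The domains were spread over all 19 chromosomes, from 7 on chromosome 14 to 43 on chromosome 11. A protein-coding TSS lay inside 375 of them, and 21 only had one within 2.5 kb. There was 1 protein-coding gene near 375 domains, 2 near 18 and 3 near 3, so 416 genes had a broad domain. No domain contained the start sites of 3 or more genes. Those with 3 genes near included the domain beside Shisa5, Trex1 and Atrip (3342 bp) and that at the replication-dependent histone genes Hist1h2bq, Hist1h2ao and Hist1h4m (2038 bp), whose near-identical copies can share reads.

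Arid2, a subunit of the SWI/SNF (PBAF) chromatin remodeller, had the longest at 4585 bp (chr15:96284598-96289182). Peaks covered 4552, 4146 and 4465 bp of it in replicates 1, 2 and 3, so all libraries held nearly the whole domain. Cdk6, a kinase that drives progenitors through G1, followed with 4449 bp (chr5:3340467-3344915). Its covered lengths were 3800, 3858 and 4424 bp, the last in a single unbroken peak. B3gnt2, a glycosyltransferase that builds polylactosamine chains, had 4302 bp (chr11:22856501-22860802) and covered lengths of 3797, 3279 and 3744 bp. Hivep2, a zinc finger transcription factor, had 4254 bp (chr10:13964171-13968424), of which 4008, 3985 and 3865 bp were covered. Kmt2e, a chromatin protein of the mixed-lineage leukaemia family, had 4128 bp (chr5:23431817-23435944), with 3840, 3880 and 4021 bp covered. These 5 domains kept over 3200 bp of peak in every library.

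The next longest belonged to Zc3h4 (4085 bp), a zinc finger protein that limits transcription outside genes, to Tshz1 together with Zadh2 (4046 bp), and to Mef2c (3995 bp), a MADS box transcription factor of myeloid and lymphoid progenitors. Tgif1 (3978 bp), a homeodomain repressor of TGFβ signalling, Cytip (3968 bp), a regulator of leukocyte adhesion, and Cdk9 (3916 bp), the kinase that releases paused RNA polymerase II, came after them. Arid1b (3801 bp), a second SWI/SNF subunit, was covered almost identically in the 3 libraries, with 3801, 3710 and 3759 bp. The remaining 8 of the 20 longest were Arrdc3 (3763 bp), Anp32a (3719 bp), Hmga1 (3683 bp), Pcbp1 (3634 bp), Tnrc18 (3610 bp), Foxo3 (3570 bp), Foxp1 (3504 bp) and Mknk2 (3501 bp). Hmga1 is an architectural chromatin protein, Pcbp1 binds RNA, Foxo3 and Foxp1 are forkhead transcription factors, and Mknk2 is a kinase of the translation factor eIF4E.

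**Figure D2:**
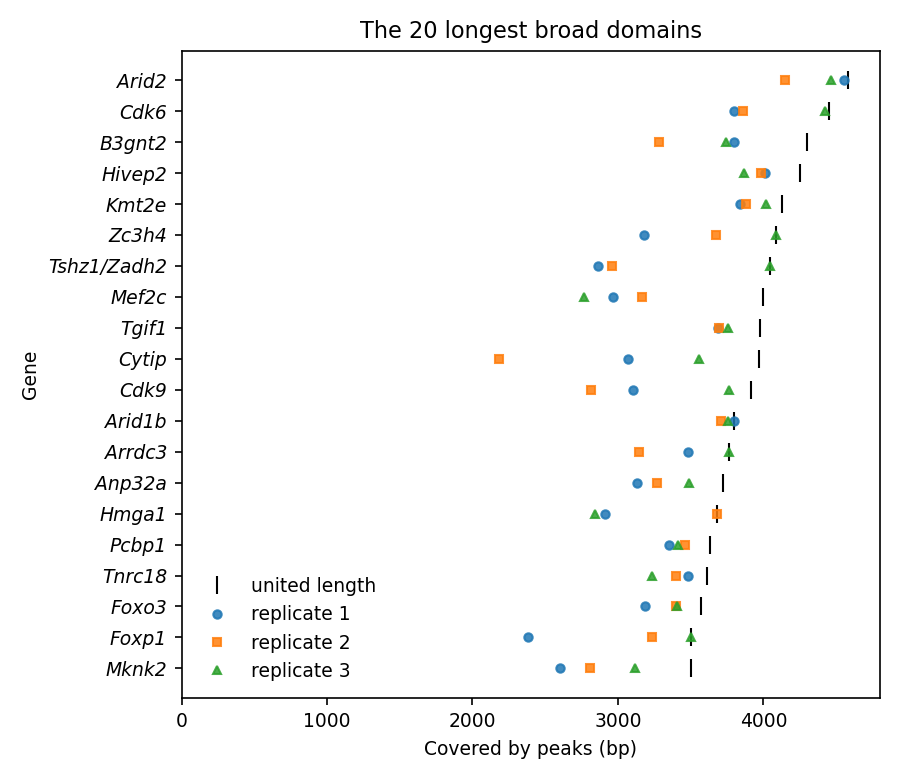
Covered length in bp (horizontal axis) of the 20 longest broad domains (vertical axis, by gene) in replicates 1, 2 and 3, with the united length as a black bar. Arid1b, Tgif1 and Pcbp1 were covered to a similar extent in the 3 libraries, whereas Cytip ranged from 2183 to 3555 bp.

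Because the members were chosen on length united over libraries, their lengths are described without a test. The median covered length was 1968 bp in replicate 1, 2026.5 bp in replicate 2 and 2143.5 bp in replicate 3, a mean of 2046 ± 89.4 bp (SD, n = 3), against 632 ± 27.4 bp in the shorter regions. Peaks covered at least 2000 bp of 132 domains in all 3 libraries and of 62 domains in none, where the united length came from staggered peaks. A single unbroken peak of at least 2000 bp was present in 117, 147 and 245 domains in replicates 1, 2 and 3, in all 3 libraries for 67 and in none for 94. The count was highest in replicate 3, which also had the greatest depth and fold enrichment, and the part of these in it was not tested. The relative SD of covered length over the libraries was below 10% in 219 domains (55.3%). It was smallest for Rai1, a chromatin-associated transcriptional regulator, with 2250, 2244 and 2239 bp covered. It was largest for Hspa8, a constitutive heat shock chaperone, with 478, 1286 and 2012 bp covered. Across the 396 domains Spearman's rho of covered length was 0.621, 0.646 and 0.614 between replicates 1 and 2, 1 and 3, and 2 and 3, where the points share the united boundaries.

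Broad domains were also taller at their strongest point. The peak caller's fold enrichment, the fragments at a summit relative to the local background of that library, had a median of 14.5, 14.6 and 17.9 at the strongest summit of the broad domains, and of 7.59, 8.001 and 9.24 in the shorter regions. The ratio of the medians was 1.92, 1.82 and 1.94 (mean 1.89 ± 0.0641, SD, n = 3). The strongest summit rested on a median of 52, 53 and 66 fragments in broad domains and 27, 30 and 35 in shorter regions. A broad domain had a median of 4 summits against 1, so its highest value was taken over more of them. With the mean over the summits of each region the ratio was 1.28 ± 0.0349 (SD, n = 3), an alternative chosen after seeing the data. These values come from the peaks that chose the domains and were not tested.

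Among the broad domains themselves, height did not follow length. Spearman's rho between united length and fold enrichment was -0.0023, 0.0162 and -0.0093 in replicates 1, 2 and 3 (396 domains), whereas fold enrichment itself had a rho of 0.897 to 0.906 between libraries. The highest mean was that of Ino80, the catalytic subunit of a nucleosome remodeller, at 37.2 ± 2.80 (SD, n = 3), with 35.5, 35.7 and 40.4 in the 3 libraries. Rac1 (35.7 ± 1.98), a small GTPase of the cytoskeleton, Elk4 (34.8 ± 5.15), an ETS factor of the serum response, Hnrnpa0 (34.8 ± 3.49), an RNA-binding protein, and Atad2b (34.2 ± 3.83), a bromodomain protein, completed the 5 highest. All 5 were between 2042 and 2507 bp long. Most domains were similarly short, as 125 of the 396 reached 2500 bp. The 5 lowest were Tmem229b (5.24 ± 1.00), Dcun1d1 (5.32 ± 0.269), Fam84b (5.45 ± 1.19), Mbnl2 (5.46 ± 0.363) and Capzb (5.75 ± 0.736). At Tmem229b the strongest summit had 4.57, 4.75 and 6.39-fold enrichment from 21, 18 and 25 fragments, so this domain was low in every library. Cdk6 combined near-maximal length with low enrichment, at 6.50, 9.83 and 11.3-fold.

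To locate the acetylation relative to transcription, domains with 1 protein-coding gene and its principal TSS within 2.5 kb were oriented along the gene (326 broad domains and 7727 shorter regions). Broad domains reached further into the gene than upstream. The outermost peaks ended a median of 1365, 1411 and 1459.5 bp downstream of the TSS and 689, 707.5 and 742.5 bp upstream of it in replicates 1, 2 and 3. The median of the difference per domain was 672, 753 and 731.5 bp (mean 719 ± 42.0, SD, n = 3, downstream in 3 of 3 libraries). Flipping the signs of the 3 library values in every combination (exact sign-flip permutation, two-sided) gave p = 0.25, which is as low as the design can go, so the threshold of 0.05 was out of reach. The 3 values share the same domains and start sites, chosen on peaks of these libraries, so 3 of 3 is not independent evidence of direction. For domains of at least 3000 bp the mean difference was 1279 bp. In shorter regions the difference was 561, 563 and 563 bp, with medians of 603, 625 and 629 bp downstream and 10, 18 and 22 bp upstream. Each region was oriented by itself, and 1 TSS can have several shorter regions (7727 regions, against 6226 genes in the promoter comparison below). Peaks upstream and downstream of a TSS can thus fall in separate regions, so these values are not the reach of a whole promoter. Since the classes were divided by length, the longer reach of broad domains on each side follows from their choice.

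Averaged over libraries, downstream reach was the longer in 257 of 326 domains (78.8%). In shorter regions the share per library averaged 76.5%, so the downstream lean was common to both classes. Downstream reach was at least 2000 bp in 65 domains, whereas upstream reach was at least that long in 10. The printed B3gnt2 sequence is placed on a RefSeq start site that lies further into the gene than its principal TSS. From the principal TSS, B3gnt2 extended 3926, 3987 and 3429 bp into the gene and 165, 4 and 314 bp upstream. The domains of Arrdc3, Anp32a and Tnrc18 likewise lay almost wholly inside the gene, with mean downstream reaches of 3563, 4050 and 3566 bp. A minority pointed the other way. Cdk6 extended 3505, 3843 and 3845 bp upstream and 603, 530 and 578 bp downstream of its principal TSS, and Arid2 extended 2963, 2953 and 2975 bp upstream and 1588, 1192 and 1609 bp downstream. Mknk2 had a mean upstream reach of 3689 bp, with its domain ending before the principal TSS. Other annotated start sites of the same gene can lie inside such domains.

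**Figure D3:**
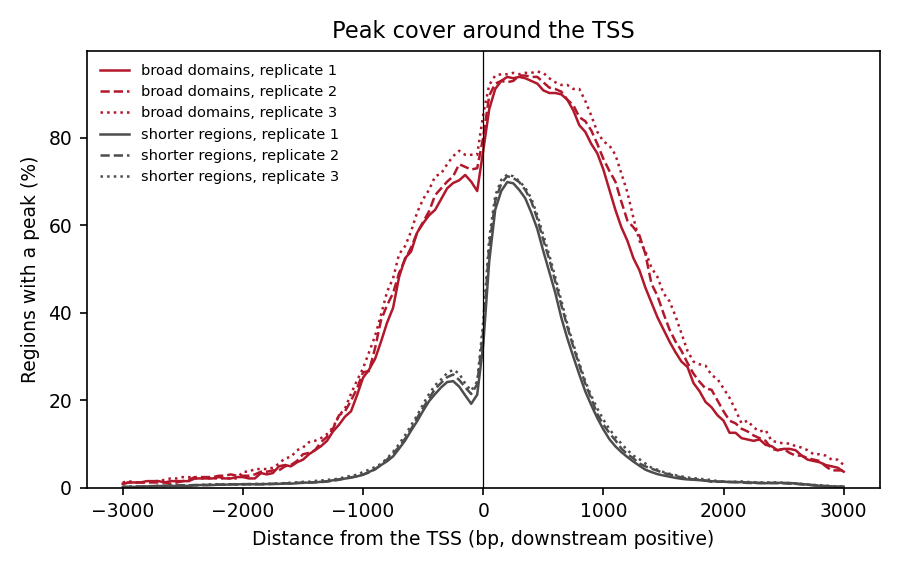
Percentage of regions with a peak (vertical axis) against distance from the principal TSS in bp (horizontal axis, downstream positive, steps of 50 bp) for 326 broad domains (red) and 7727 shorter regions (grey), with a line for each replicate. Over 50% of broad domains were covered from 650 or 700 bp upstream to between 1250 and 1400 bp downstream, while shorter regions passed 50% only from 50 to between 500 and 550 bp downstream.

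Peak cover dipped just before the TSS in both classes. At the TSS itself, 77.0%, 80.1% and 85.3% of broad domains were under a peak in replicates 1, 2 and 3, against 32.6%, 35.7% and 37.9% of shorter regions. Shares are per region, so a TSS with several shorter regions is counted for each. Cover was greatest 200, 300 and 450 bp downstream in the broad domains, at 93.9%, 94.2% and 95.1%, and 200 bp downstream in the shorter regions, at 69.8%, 71.2% and 71.6%. At 1000 bp downstream 72.7%, 75.2% and 79.1% of broad domains were still covered, and 13.3%, 14.5% and 15.6% of shorter regions. Of the bases under peaks in the oriented broad domains, 32.5% ± 0.136 lay upstream of the TSS, 19.7% ± 0.7 in the first exon and 41.6% ± 0.370 in the first intron (SD, n = 3). Pooled over the domains, the first intron held the largest of these shares, though single domains such as that of Cdk6 lay mainly upstream. In shorter regions the shares were 25.1% ± 0.333, 23.6% ± 0.271 and 45.8% ± 0.149.

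Summits were commonest on either side of the TSS and less common next to it. Of 1372, 1443 and 1502 summits in the broad domains, 67.4%, 67.8% and 67.6% lay downstream of the TSS in replicates 1, 2 and 3 (mean 67.6% ± 0.213, SD, n = 3). This was above 50% in 3 of 3 libraries (two-sided exact sign-flip permutation p = 0.25, the lowest possible). In shorter regions 74.1%, 73.6% and 73.6% lay downstream, so the downstream share was lower in broad domains, with a difference of -6.10 ± 0.494 percentage points (broad minus shorter, lower in 3 of 3 libraries, two-sided exact sign-flip permutation p = 0.25). The commonest downstream position was 100 to 200 bp from the TSS and the commonest upstream position 200 to 300 bp from it, in both classes and every library, except that in the broad domains of replicate 3 the bin from 200 to 300 bp downstream held as many. The upstream bin held 21.8, 23.0 and 23.9 summits per 100 broad domains and 8.27, 8.75 and 8.87 per 100 shorter regions. In the 100 bp before the TSS there were 8.59, 8.28 and 6.13 per 100 broad domains.

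**Figure D4:**
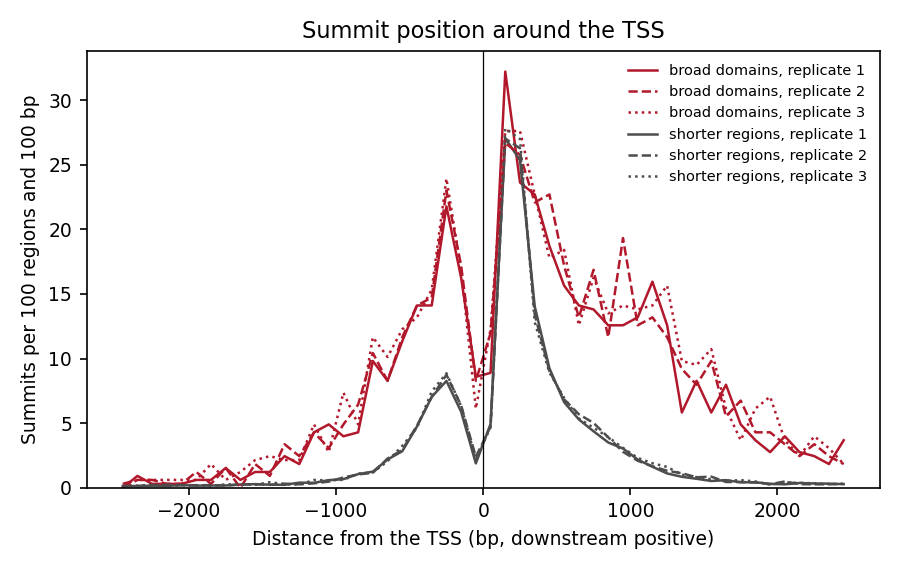
Summits per 100 regions in 100 bp bins (vertical axis) against distance from the principal TSS in bp (horizontal axis, downstream positive) for broad domains (red) and shorter regions (grey), with a line for each replicate. Both classes peak at 100 to 200 bp downstream, shared with the next bin for broad domains in replicate 3, and broad domains add a taller upstream peak and a long downstream shoulder.

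The promoters of broad domains were rich in CpG. In the 300 bases from 250 before to 50 after the principal TSS, the ratio of observed to expected CpG had a median of 0.876 in broad domains (95% interval of the median 0.839 to 0.901, 326 genes), 0.797 in shorter regions (0.790 to 0.802, 6226 genes) and 0.568 over all 20722 autosomal protein-coding genes (0.558 to 0.578). Sequence plays no part in the choice of domains, but genes are not independent replicates and no test was made. The median number of CpGs was 31 against 22 in shorter regions and 13 over all genes. GC content was 70.0%, 61.0% and 56.0%. A ratio of at least 0.6 was found for 286 broad domains (87.7%, Wilson 95% interval 83.7% to 90.9%), 79.2% of shorter regions (78.2% to 80.2%) and 47.7% of all genes. Within ±500 bases of the TSS the medians were 0.857, 0.766 and 0.580, in the same order.

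Short promoter motifs were counted on both strands of the same windows as a description of letters, not of binding. The GC box GGGCGG, bound by Sp1-type factors, occurred in 75.8% of broad domains (Wilson 95% interval 70.8% to 80.1%), 67.7% of shorter regions and 46.0% of all genes. The CCAAT box (CCAAT), bound by NF-Y, was less common in broad domains at 24.8% (20.5% to 29.8%), against 38.3% (37.1% to 39.5%) of shorter regions and 37.7% of all genes. The ETS core CCGGAAG was found in 13.2% (9.94% to 17.3%), 20.7% (19.7% to 21.7%) and 11.4%. For the TATA box TATAAA the shares were 5.21%, 6.30% and 13.3%, for the E-box CACGTG 7.67%, 11.2% and 7.79%, and for the cyclic AMP response element TGACGTCA 3.99%, 4.19% and 2.45%. GGGCGG is itself made of G and C and contains a CpG, so its share moves with base composition. Beside the higher GC content of broad domains, the part of composition in these shares was not tested.

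Genes with broad domains were long. Median gene length was 37.2 kb (95% interval of the median 30.4 to 48.5 kb, 326 genes), against 25.02 kb (24.2 to 25.8 kb) for genes of shorter regions and 17.1 kb over all autosomal protein-coding genes. The first intron, into which most downstream acetylation extended, had a median of 8.77 kb (6.39 to 10.9 kb, 314 genes with an intron), against 3.78 kb (3.58 to 3.999 kb) and 2.82 kb. Around the domains there was a mean of 2.303 principal TSSs of protein-coding genes in the domain and the 50 kb on each side of it, against 3.14 for shorter regions, while the median was 2 in both classes.

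To ask whether broad domains lay among other acetylated sites, peaks more than 2.5 kb from every protein-coding TSS were counted in the 50 kb on each side. Broad domains had a mean of 2.75, 3.28 and 2.77 such distal peaks in replicates 1, 2 and 3, and shorter regions 1.15, 1.42 and 1.21. The difference was 1.602, 1.85 and 1.56 peaks (mean 1.67 ± 0.159, SD, n = 3, higher in 3 of 3 libraries, two-sided exact sign-flip permutation p = 0.25, the lowest possible). No distal peak was found around 29.5%, 28.5% and 34.8% of broad domains and 55.0%, 49.7% and 55.1% of shorter regions. Where 1 principal TSS lay in the window, the means were 3.32, 3.64 and 3.07 for 172 broad domains and 1.46, 1.72 and 1.41 for 2527 shorter regions. With 5 or more the values were 1.19, 1.65 and 1.88 for 43 broad domains and 0.887, 1.11 and 1.00 for 2111 shorter regions. The order was thus the same in gene-poor and gene-rich windows. The size of the difference moved with the definitions, to 0.668 peaks with only peaks of −log10 q of at least 5, 1.07 at a length of 1500 bp and 3.603 at 3000 bp. At least 5 distal peaks on average surrounded 74 domains (18.7%), and the matching share of shorter regions is not given here. Among the 74 were B3gnt2 with a mean of 12.7, Erg with 18, 21 and 22, and Zfp36l2 with 16, 19 and 16. There was none around Tgif1, Arrdc3 or Ino80. These examples were named after their values were seen.

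Broad domains were set against 15 gene lists, which give shares with no set test. The lists were chosen with earlier results of these data known, so the shares are a description only. Over all autosomal protein-coding genes 2.01% had a broad domain (416 of 20722), and among the 8528 genes with any shared promoter region the share was 4.88%. Immediate-early and feedback genes, many of which are switched on within minutes of a signal, had the highest share, with 9 of 24 (37.5%, Wilson 95% interval 21.2% to 57.3%). Chromatin regulators followed with 15 of 52 (28.8%, 18.3% to 42.3%) and haematopoietic transcription factors with 7 of 32 (21.9%, 11.02% to 38.8%). Among members with a shared promoter region the shares of these lists were 37.5%, 30% and 26.9%, against the 4.88% of all such genes. Median length of the longest promoter region was 1550.5, 1515 and 1676 bp, against 878 bp over the 8528 genes.

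Of the haematopoietic transcription factors, Lmo2, the LIM protein that bridges Tal1 and Gata factors, had the longest domain at 3210 bp (chr2:103968764-103971973). It was covered over 2593, 2516 and 3072 bp and its strongest summit had 6.61, 11.4 and 12.01-fold enrichment, so it was wide but low. Erg, an ETS factor of stem cells, had 3019 bp with 9.04, 9.81 and 13.3-fold, and Tal1, the basic helix-loop-helix factor of blood formation, had 3015 bp with 8.19, 10.0 and 10.6-fold. The Cre transgene of these mice carries regulatory sequence of Tal1, and reads from it and from the Tal1 locus cannot be told apart. Etv6, an ETS repressor, had 2742 bp and was taller, with 22.3, 17.0 and 22.1-fold. Spi1 (PU.1), the myeloid master regulator, had 2626 bp with 8.005, 7.25 and 9.62-fold. Ikzf1 (2310 bp) and Zeb2 (2143 bp), zinc finger factors of lineage choice, completed the 7. Hoxa7 had a shared region of 1864 bp and Runx1 of 1473 bp, below the threshold.

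The immediate-early list was led by Zfp36l2 (3182 bp), which encodes a protein that promotes decay of AU-rich mRNA. Its peaks covered 3009, 3016 and 3055 bp with 9.32, 8.48 and 14.4-fold enrichment. Ier2 (3001 bp), Junb (2847 bp), Dusp2 (2591 bp, a MAP kinase phosphatase, shared with Astl), Mcl1 (2455 bp, an anti-apoptotic Bcl2 family protein), Zfp36 (2278 bp), Jun (2136 bp) and Fosb (2131 bp) followed. Jun, Junb and Fosb are subunits of the AP-1 transcription factor, and Zfp36 is a relative of Zfp36l2 with the same role. Mcl1 and Fosb were among the tall ones, with means of 26.1 ± 2.61 and 25.5 ± 3.71 (SD, n = 3), whereas Dusp2 had 9.11 ± 1.62. All 24 genes of the list had a shared promoter region.

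Chromatin regulators included both SWI/SNF and histone methylation genes. Besides Arid2, Kmt2e and Arid1b they were Kmt2c (3175 bp), a methyltransferase of enhancers, Arid1a (2634 bp), the DNA-binding SWI/SNF subunit, Kdm2b (2547 bp), the CpG-binding subunit of the Polycomb complex that also contains Bcor, Kdm6b (2514 bp), an H3K27 demethylase, and Chd1 (2351 bp), a remodeller of transcribed chromatin. Kmt2c had 22.5, 25.3 and 27.8-fold enrichment and Chd1 33.2, 24.1 and 30.6-fold, while Kdm2b had 10.3, 10.0 and 10.99-fold. The other 7 members with a domain were between 2057 and 2198 bp long.

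The other functional lists had shares of 0 to 7.69%, beside 2.01% of all autosomal protein-coding genes, and the intervals of those with a domain are wide. Splicing factors had 2 of 26 (7.69%, Srsf3 and Hnrnpu), cell cycle genes 2 of 31 (6.45%, Cdk6 and E2f3) and cytokine receptor and JAK-STAT genes 1 of 25 (4%), the kinase gene Jak2 at 2533 bp. Ribosomal protein genes had 2 of 72 (2.78%), Rpl7 and Rpl30, which have many near-identical copies in the genome. Of the lists with no broad domain, none of 78 oxidative phosphorylation subunits (Wilson upper limit 4.69%) and none of 38 proteasome subunits (upper limit 9.18%) had one, and both limits lie above 2.01%. Their promoters were acetylated, with a shared region at 65 of the 78 and 33 of the 38, but the median longest region was 767 and 923 bp. Another 5 of the 78 and 3 of the 38 lay only in opposite pairs, which the choice of domains leaves out. The same held for 5 of the 72 ribosomal protein genes and 2 of the 26 splicing factors. All of these stay in the totals, and Atp5o has 2 entries among the 78.

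**Figure D5:**
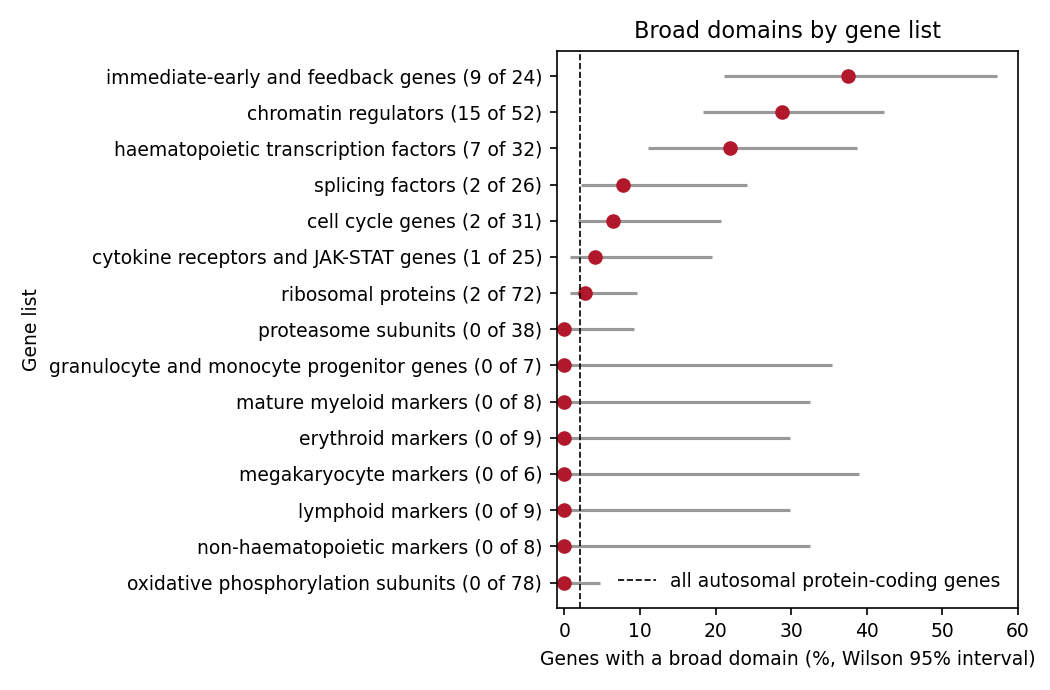
Percentage of the genes of each list with a broad domain (horizontal axis, points, with Wilson 95% intervals as lines), with the number of genes in brackets and a dashed line at 2.01%, the share over all autosomal protein-coding genes. Immediate-early and feedback genes, chromatin regulators and haematopoietic transcription factors lie far to the right of the line, and lineage marker lists are at 0. The lists were chosen with earlier results of these data known.

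The marker genes of progenitor, mature and other lineages were too few to set their counts of 0 apart from the 2.01% of all genes. The counts were 0 of 7 for granulocyte and monocyte progenitor genes, 0 of 8 for mature myeloid, 0 of 9 for erythroid, 0 of 6 for megakaryocyte, 0 of 9 for lymphoid and 0 of 8 for non-haematopoietic markers. A shared promoter region of any length was present at 4, 0, 1, 2, 4 and 0 of them. Kit, the receptor used to sort the cells, had a shared promoter region of 1934 bp. The granule genes Ctsg and Mpo had the longest regions of the progenitor list, 1911 and 1069 bp. Cd34 had 436 bp and Prtn3 359 bp, and Elane, Ms4a3 and Fcgr3 had no shared region. These are united lengths. In replicates 1, 2 and 3 peaks covered 1573, 1899 and 1524 bp at Kit, 200, 1709 and 1641 bp at Ctsg and 252, 477 and 1005 bp at Mpo. These lists are short, and the Wilson interval of a count of 0 reached 32.4% for 8 genes and 29.9% for 9.

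Among 11 autosomal genes taken from those the study names, Lmo2, Tal1 and Zfp36 had broad domains and the other 8 did not, beside 2.01% of all autosomal protein-coding genes. The study names further genes that are not counted here. At Zfp36 (chr7:28376953-28379230) peaks covered 2276, 1637 and 2222 bp with 14.0, 10.4 and 15.5-fold enrichment, so replicate 2 was lowest in both. The longest shared promoter regions of the others were 1864 bp at Hoxa7, 1845 bp at Bahcc1, 1701 bp at Calm2, 1622 bp at Fos, 1494 bp at Clic4, 1432 bp at Zfp36l1, 1221 bp at Hoxa9 and 1074 bp at Prex1. Calm2, which encodes calmodulin, had the tallest summit of them, at 20.3, 17.8 and 17.0-fold, and Hoxa9 stayed low at 5.42, 5.40 and 6.70-fold. The study chose several of these genes in part on H3K27ac in these same libraries.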

How the data were processed

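H3K27ac ChIP-seq of 3 BcorΔE9-10 KL libraries was analysed, and the other 19 of 22 samples were not used here. The authors trimmed reads (cutadapt 1.7) and mapped them with Bowtie2 to GRCm38. After duplicate removal, MACS2 2.1.1 was run on each library. The control used was not given in the sources used here. The deposited lists hold per summit a fold enrichment (a ratio to local background, not scaled between libraries), the −log10 of the p-value and q-value, and a score, which is the −log10 q times a constant and was not used. Depth and fragments were solved from the deposited fold enrichment and −log10 p (tolerance 0.005, 100% of summits), with fragments of 200 bp.

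Gene models were GENCODE M21, and coordinates are GRCm38, counted from 1. Repeated intervals were counted once, and overlap from 1 bp. CpG was read from the RefSeq GRCm38.p6 genome, since the promoter table matched 75.7% of genes and served only for printed sequences. Within-library contrasts used an exact two-sided sign-flip permutation test over libraries (SciPy 1.17.1). Each contrast used the same regions in all 3 libraries, chosen on peaks of those libraries, so the library values are not fully independent. Scripts were tested on simulated peak lists. The domains, lists and tests were chosen with earlier results of these data known. Named were the 20 longest domains, up to 8 list members, the 3 regions on each side of 2000 bp, the 5 highest and lowest by fold enrichment, extremes of relative SD and genes the study names. Marker genes Kit, Ctsg, Mpo and Runx1, and domains named for reach or distal peaks, were chosen after their values were seen.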

Additional observations from a re-analysis of the deposited data

Results flagged for a closer look

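The X chromosome lay outside the domains described above, and the same conditions applied to it gave 7 domains among 252 shared promoter regions (2.78%, Wilson 95% interval 1.35% to 5.62%). The autosomal share of 3.87% lies inside that interval. The mice were male, and the copy number of X was not taken into account. Domains on X lay at Med14, Ddx3x, Hcfc1, Zfx and Asmt, and 2 lay at separate start sites of Bcor, the gene carrying the deletion. The Bcor domain at chrX:12078123-12080575 (2453 bp) was covered over 2448, 2164 and 1970 bp with 6.74, 6.62 and 9.52-fold enrichment in replicates 1, 2 and 3. The Bcor domain at chrX:12156421-12158985 (2565 bp) was covered over 2439, 1202 and 2001 bp with 5.46, 5.62 and 9.10-fold. Peaks at start sites do not show whether exons 9 and 10 were removed, and no BcorWT library was analysed here.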

How the results depend on the processing

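Of 126 recomputations of 12 results, 102 stayed the same, 24 moved in size and 0 reversed. Results such as the number of domains and covered length have no direction that could reverse. Keeping opposite pairs could not change reach, summits, gene length, first intron or CpG, which used only domains with 1 gene. The 5′-most TSS lies at or upstream of the principal TSS, so measuring from it favours the downstream direction for a given domain. Downstream reach, downstream summits and distal peaks were judged by direction alone, which they kept under every alternative tried, while their sizes ranged from 632.5 to 1279 bp, 65.2% to 73.8% and 0.668 to 3.603 peaks. The CpG ratio ranged from 0.841 to 0.884. The number of domains depended on the definition. It was 1131 at a length of 1500 bp, 51 at 3000 bp and 1268 when intervals up to 500 bp apart were united, and 245 to 349 when a replicate was left out (245 without replicate 3). Median covered length was 1616 bp, 2950 bp and 1855 bp under the first 3 of these settings. The ratio of fold enrichment to shorter regions was 1.65 with peaks of −log10 q of at least 5, 1.77 with at least 50% covered in each library, 1.56 with intervals united up to 500 bp, 1.28 with the mean over summits and 2.05 to 2.101 without a replicate. Uniting to 500 bp lowered median gene length to 29223 bp and the first intron to 5922 bp. Shares with a domain at 1500 bp, 3000 bp and uniting to 500 bp were 43.8%, 9.38% and 68.8% of haematopoietic transcription factors, and 48.1%, 7.69% and 46.2% of chromatin regulators. For immediate-early genes they were 8.33% at 3000 bp and 79.2% with uniting to 500 bp. The number of domains changed at the same settings, and the share of all genes is not given for them. Whether the lists stayed above that share was not tested. No paired analysis was possible because the 3 libraries form 1 group and no second group was compared. With 3 libraries a sign-flip p cannot fall below 0.25.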
